A study of Homo sapiens with 16 samples.

Results

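The genes described here are the 9 rows of the count table that hold the type I interferon receptor chains IFNAR1 and IFNAR2, the kinases JAK1 and TYK2, the signal transducers STAT2 and STAT3, and the interferon regulatory factors IRF1, IRF7 and IRF9. They were chosen by gene symbol, with earlier results of these data known, from the 59428 genes of the table. All 9 passed the filter on low counts in every comparison. RNA was sequenced from OVCAR3, an ovarian carcinoma line with intact BRCA1, and from UWB1.289, an ovarian carcinoma line with a deleterious BRCA1 mutation. BRCA1 takes part in repairing DNA breaks by homologous recombination, and olaparib inhibits the PARP enzymes that act on DNA strand breaks. OVCAR3 received 7.5 µM olaparib and UWB1.289 received 3.5 µM, in each case for 96 h, and control cells received the solvent DMSO for the same time. Every group of line and treatment had 4 replicates, which gives 16 libraries. Each BRCA1 state is represented by a single line, and medium and dose also differed between them, so that line, BRCA1 state, medium and dose cannot be told apart.

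Type I interferons bind IFNAR1 and IFNAR2 at the cell surface. TYK2, bound to IFNAR1, and JAK1, bound to IFNAR2, then phosphorylate STAT proteins. STAT2 joins another STAT and IRF9 in the complex ISGF3, which enters the nucleus and binds the interferon-stimulated response element (ISRE) of target genes. IRF7 drives transcription of further interferon genes, and IRF1 is a transcription factor whose own gene responds to STAT dimers at gamma-activated sequences (GAS). STAT3 is the main STAT of the IL6 family of cytokines, which share JAK1 and TYK2 with interferons. Several of these genes are themselves targets of interferon, so that their RNA can rise after the pathway has been engaged. RNA levels do not measure phosphorylation or protein.

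Total counts per library ranged from 5599571 to 7730228 with a median of 6413979.5. Levels are given as normalized counts, which are read counts scaled to a library of average effective size over all 16 libraries. The libraries hold reads from the 3' ends of transcripts, and a level is compared only between groups for the same gene. A gene rose or fell where edgeR's quasi-likelihood test gave an adjusted p below 0.1 over all genes tested, and it was differentially expressed where the change was also more than 2-fold with an average normalized count above 10. All 9 listed epithelial and serous carcinoma markers were detected, with a summed level of 52659 to 56404 in UWB1.289 with DMSO, 41933 to 51153 with olaparib, 31075 to 32872 in OVCAR3 with DMSO and 19453 to 22046 with olaparib. Of 7 leukocyte markers, 4 stayed at 3 counts or fewer in every library. MS4A1 and NKG7 had no count in any library. PTPRC had 32 to 48 raw counts a library in UWB1.289 with DMSO, 25 to 69 with olaparib, and at most 3 in OVCAR3. CD14 had 16 to 31 raw counts in UWB1.289 with DMSO, 35 to 57 with olaparib, and at most 7 in OVCAR3. Of 5 fibroblast markers, 4 stayed at 3 counts or fewer, and the summed level, mostly COL1A1, was 142 to 197 in OVCAR3 with DMSO, 197 to 253 with olaparib, and at most 38.5 in UWB1.289. The summed endothelial level was at most 49.7. The part of these markers in the results was not tested. In bulk RNA, a change in the share of cells that express a gene cannot be told apart from a change in the RNA of each cell.

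Promoter sequences are shown for 3 genes whose response to olaparib is described next, as the 250 bases before and the 50 bases from the annotated start (RefSeq, GRCh38.p14). Windows were at hand for 7 of the 9 genes, and IFNAR2 and IRF7 had no entry. The ISRE core, GAAA followed by any 2 bases and GAAA again, searched on both strands, was in 3.57% of all 35116 promoter windows and in no window of the 7 genes. The GAS motif TTCNNNGAA, which reads the same on both strands, was in 7.66% of all windows. It was in 2 of the 10 windows of the 7 genes, those of IRF1 and IRF9. Capitals mark the GAS match. IRF1 lies on the minus strand (window chr5:132490724-132491023), IRF9 on the plus strand (chr14:24161015-24161314), and STAT2, shown as a window with no match to either motif, on the minus strand (chr12:56360058-56360357).
IRF1: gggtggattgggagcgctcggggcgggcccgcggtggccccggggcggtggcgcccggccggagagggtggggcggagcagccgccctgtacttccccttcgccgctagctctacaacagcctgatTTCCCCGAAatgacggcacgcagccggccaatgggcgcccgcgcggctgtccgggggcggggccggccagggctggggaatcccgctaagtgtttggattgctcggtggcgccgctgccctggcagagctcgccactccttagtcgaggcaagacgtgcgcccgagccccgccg
IRF9: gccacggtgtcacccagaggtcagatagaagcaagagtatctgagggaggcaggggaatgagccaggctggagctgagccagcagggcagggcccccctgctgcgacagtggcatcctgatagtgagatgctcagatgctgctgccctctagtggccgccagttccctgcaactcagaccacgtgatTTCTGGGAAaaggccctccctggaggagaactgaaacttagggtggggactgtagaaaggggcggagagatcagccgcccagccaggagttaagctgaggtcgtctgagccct
STAT2: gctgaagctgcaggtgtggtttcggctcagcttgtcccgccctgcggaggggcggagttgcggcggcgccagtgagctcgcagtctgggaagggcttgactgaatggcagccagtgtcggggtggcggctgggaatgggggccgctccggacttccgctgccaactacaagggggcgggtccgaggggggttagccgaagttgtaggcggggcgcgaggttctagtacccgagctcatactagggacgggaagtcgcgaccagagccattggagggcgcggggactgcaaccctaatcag
A match is a stretch of letters and not a measured binding site.

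IRF7 and IRF1 rose with olaparib in both lines, and more in UWB1.289. IRF7 rose 3.13-fold in UWB1.289 and 1.71-fold in OVCAR3, and IRF1 rose 2.67-fold and 1.64-fold. The kinases TYK2 and JAK1 rose in OVCAR3 and did not pass the test in UWB1.289, while STAT2 rose in UWB1.289 and did not pass in OVCAR3. In UWB1.289, 5 of the 9 genes rose (STAT2, STAT3, IRF1, IRF7 and IRF9), where 7.77% of the 12748 genes tested rose, and with the replicate number as a block IFNAR2 passed as well, which makes 6. In OVCAR3, 7 of the 9 rose (IFNAR2, JAK1, TYK2, STAT3, IRF1, IRF7 and IRF9), where 15.5% of 13031 genes tested rose. The median log2 fold change of the 9 genes was 0.43 in UWB1.289 and 0.50 in OVCAR3, and that of all genes tested was -0.00 and -0.01. The DMSO and olaparib libraries did not overlap for 6 of the 9 genes in UWB1.289, against 14.7% of all genes tested, and for 5 of the 9 in OVCAR3, against 25.7%.

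**Figure D1:**
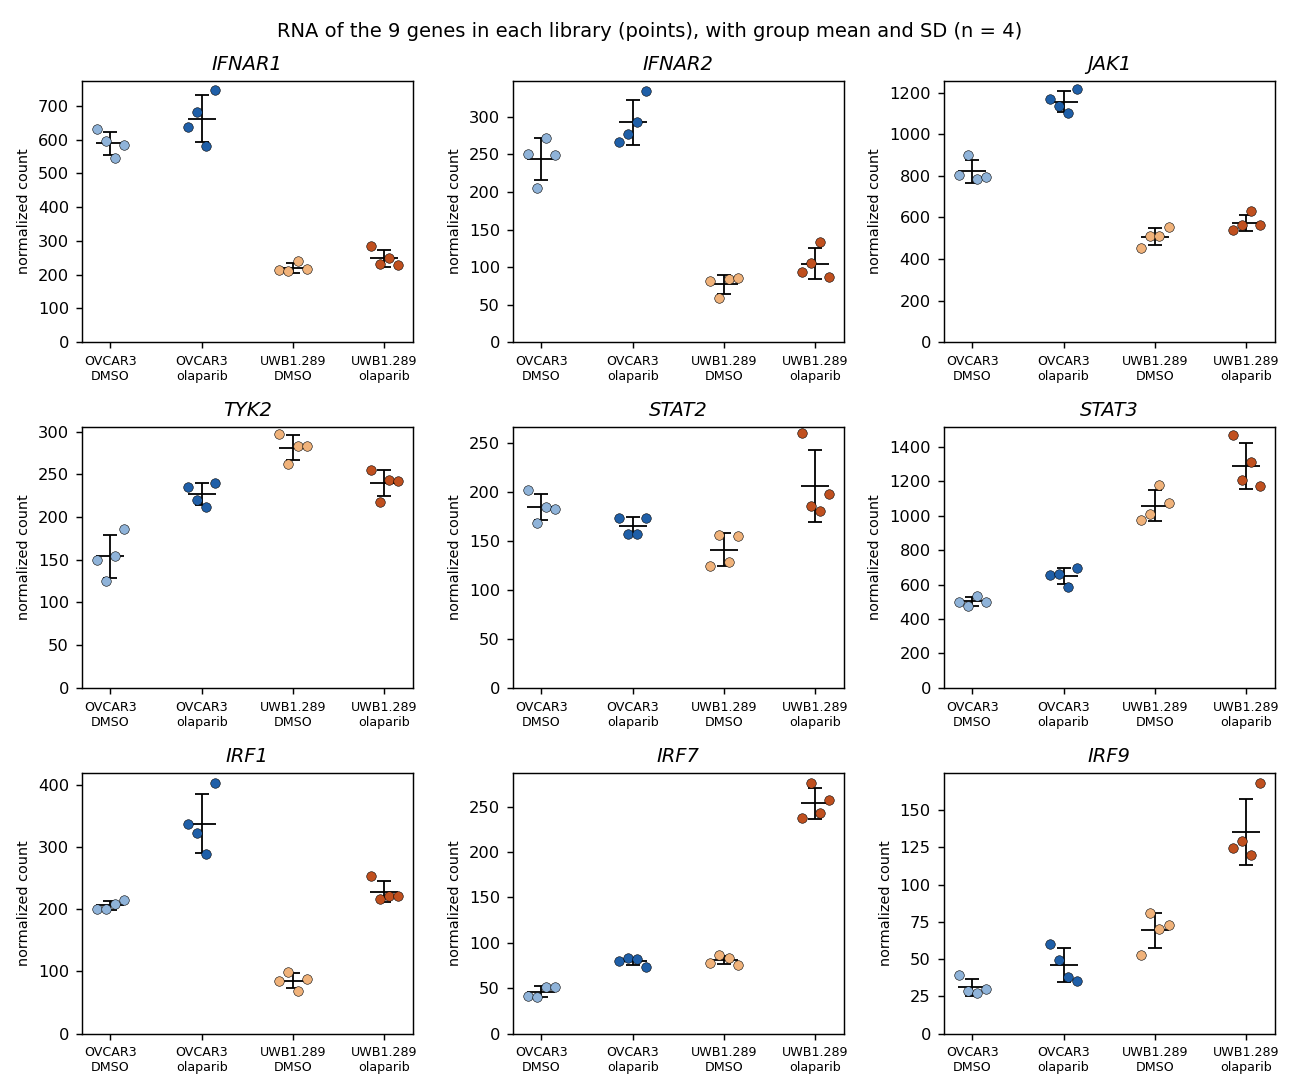
Normalized counts of the 9 genes (vertical axes, each starting at 0) in the 4 groups of line and treatment. Points are the 4 libraries of a group and bars are the mean with its SD. The IRF7 libraries of UWB1.289 with olaparib sit between 238 and 276, above all 12 other libraries.

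IRF7 (ENSG00000185507, chr11:612553-615983, minus strand, hg38) is the regulatory factor that amplifies interferon production. In UWB1.289 its normalized counts were 78.1, 86.5, 83.8 and 76.2 with DMSO, and 238, 276, 243 and 257 with olaparib. In OVCAR3 they were 41.8, 40.8, 51.6 and 51.1 with DMSO, and 79.6, 82.9, 82.1 and 73.7 with olaparib. The treated libraries lay above the controls in both lines with no overlap, and treated OVCAR3 overlapped UWB1.289 with DMSO. In UWB1.289 the log2 fold change was 1.65 (SE 0.121, adjusted p = 1.22e-09), which ranked IRF7 at 95 of 12748 genes by size of change. It was 0.77 (SE 0.168, adjusted p = 0.00200) in OVCAR3. IRF7 was the member with the largest change in each line.

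IRF1 (ENSG00000125347, chr5:132440440-132508719, minus strand) encodes a transcription factor that responds to interferons. Its normalized counts in UWB1.289 were 85.0, 99.5, 69.3 and 87.3 with DMSO and 253, 216, 222 and 220.5 with olaparib. In OVCAR3 they were 200.4, 201, 207 and 215 with DMSO and 336, 322, 289 and 402 with olaparib. All 4 groups were separate from each other, with UWB1.289 with DMSO lowest and OVCAR3 with olaparib highest, and the treated UWB1.289 libraries lay just above the OVCAR3 controls. IRF1 rose by 1.42 on the log2 scale in UWB1.289 (SE 0.130, adjusted p = 5.35e-08) and by 0.72 in OVCAR3 (SE 0.110, adjusted p = 6.34e-05). IRF1 and IRF7 were the 2 differentially expressed members in UWB1.289, where 1.93% of genes tested were differentially expressed upward. In OVCAR3, where 5.23% of genes tested were differentially expressed, no change of a member reached 2-fold (edgeR).

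The annotation places an antisense RNA, IRF1-AS1, over exons of IRF1. The sources do not state whether reads were counted by strand, so that it is not known to which of them reads in the shared exons belong. IRF1-AS1 had 593 counts over the 16 libraries, and IRF1 had 3440. It rose in UWB1.289, from 34.5 ± 2.28 to 59.9 ± 13.2 normalized counts (SD, n = 4), by 0.80 on the log2 scale (SE 0.208, adjusted p = 0.0169). It fell in OVCAR3, from 35.6 ± 5.12 to 20.4 ± 5.20 with a log2 fold change of -0.80 (SE 0.259, adjusted p = 0.0284). The counts assigned to IRF1-AS1 thus moved with those of IRF1 in UWB1.289 and against them in OVCAR3, and their part in the IRF1 values was not tested. The protein-coding gene ENSG00000283782 also lies over exons of IRF1, on the other strand. The count table has no row of that name, and its part in the IRF1 values was not tested.

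IRF9 (ENSG00000213928, chr14:24161234-24168043, plus strand) is the DNA-binding subunit of ISGF3. Its normalized counts in UWB1.289 were 52.8, 81.1, 70.3 and 72.7 with DMSO and 124, 129, 119.6 and 168 with olaparib. In OVCAR3 they were 39.6, 28.4, 27.2 and 29.7 with DMSO and 60.4, 49.6, 37.8 and 35.5 with olaparib. The treated libraries stood clear of the controls in UWB1.289 and overlapped them in OVCAR3. IRF9 rose 1.96-fold in UWB1.289 (log2 fold change 0.97, SE 0.161, adjusted p = 2.77e-04). The OVCAR3 change was smaller and passed narrowly (log2 fold change 0.55, SE 0.234, adjusted p = 0.0943). That call was lost without any of DMSO replicates 2, 3 and 4 or olaparib replicates 1 and 2, with adjusted p from 0.0437 to 0.290 over the alternatives. The raw counts behind the OVCAR3 controls were 25 to 37. The annotation places the protein-coding gene ENSG00000259529 on the same strand, and the lncRNA ENSG00000289757 on the other, over exons of IRF9. The count table has no row of either name, and their part in the IRF9 values was not tested.

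STAT2 (ENSG00000170581, chr12:56341597-56360203, minus strand) is the STAT that is particular to type I and type III interferon signalling. In UWB1.289 its normalized counts were 125, 157, 128 and 155 with DMSO and 260.1, 186, 181 and 199 with olaparib. In OVCAR3 they were 203, 169, 185 and 183 with DMSO and 173, 158, 157 and 173 with olaparib. The groups were separate in UWB1.289, with replicate 1 the highest treated library, and overlapped in OVCAR3, where the treated mean was the lower. STAT2 rose in UWB1.289 (log2 fold change 0.55, SE 0.134, adjusted p = 0.0107). In OVCAR3 the log2 fold change was -0.16 (95% interval -0.39 to 0.08, adjusted p = 0.334).

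STAT3 (ENSG00000168610, chr17:42313324-42388540, minus strand) carries signals of the IL6 family and was higher in UWB1.289 than in OVCAR3 in every library. It rose in OVCAR3 from 502 ± 25.0 to 650.0 ± 47.8 normalized counts (SD, n = 4), a log2 fold change of 0.37 (SE 0.0826, adjusted p = 0.00225). In UWB1.289 it rose from 1058 ± 89.1 to 1289 ± 133, a log2 fold change of 0.29 (SE 0.0875, adjusted p = 0.0420). The UWB1.289 groups overlapped, and the call was lost without DMSO replicate 1 or 2 or olaparib replicate 1 or 3, with adjusted p up to 0.133. The OVCAR3 groups did not overlap, and that call held in all 13 alternatives that refitted the data.

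**Figure D2:**
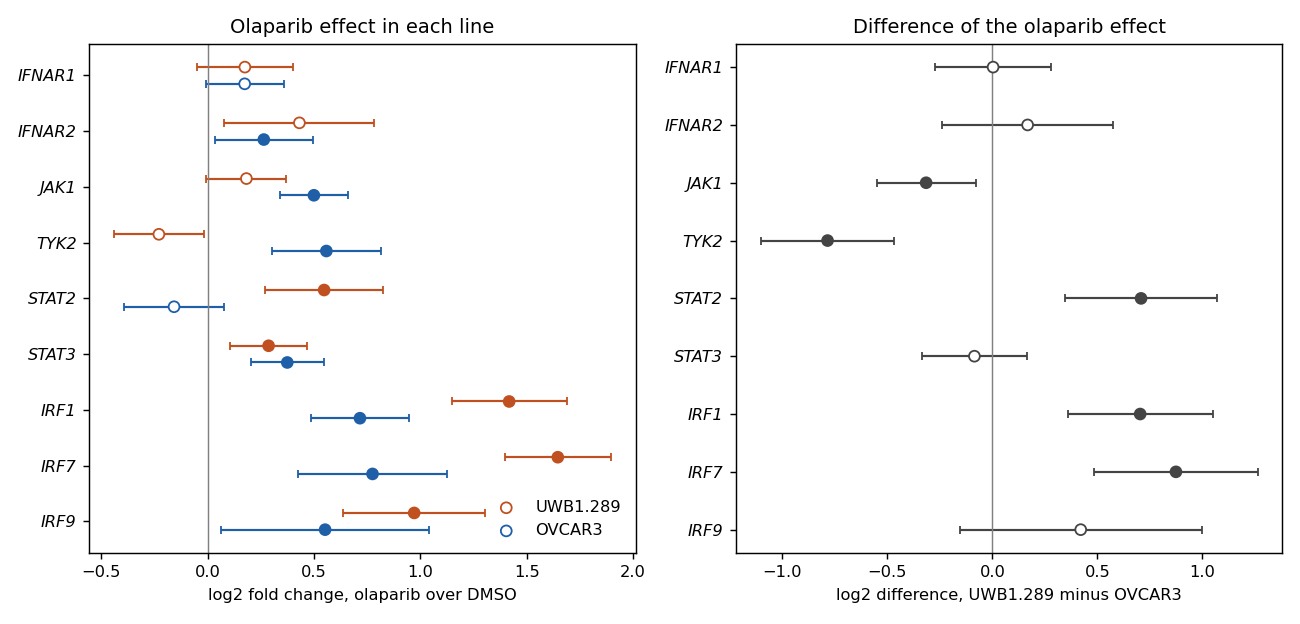
Log2 fold change of each gene, olaparib over DMSO (horizontal axis), in UWB1.289 and OVCAR3. Points are edgeR estimates with 95% intervals, filled where the adjusted p was below 0.1 and open otherwise. TYK2 and STAT2 lie on opposite sides of 0 in the 2 lines, and IRF7 and IRF1 lie furthest to the right in both.

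TYK2 (ENSG00000105397, chr19:10350533-10380608, minus strand), the kinase on IFNAR1, had differences of opposite sign in the lines. In OVCAR3 its normalized counts were 150.0, 125, 155 and 186 with DMSO and 236, 219.5, 212 and 239.9 with olaparib. In UWB1.289 they were 297, 262, 283 and 283 with DMSO and 255, 218, 243 and 242 with olaparib. The treated libraries were all above the controls in OVCAR3 and all below them in UWB1.289, and the treated groups of the lines overlapped. TYK2 rose in OVCAR3 (log2 fold change 0.56, SE 0.123, adjusted p = 0.00229). The UWB1.289 difference did not pass (log2 fold change -0.23, SE 0.101, adjusted p = 0.170).

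JAK1 (ENSG00000162434, chr1:64833223-65067754, minus strand), the kinase on IFNAR2 and on many cytokine receptors, had normalized counts of 804, 901, 784 and 793 in OVCAR3 with DMSO and 1169.5, 1137, 1099.9 and 1217 with olaparib. In UWB1.289 they were 453, 509, 512 and 553 with DMSO and 539, 565, 630.2 and 562 with olaparib. The OVCAR3 groups were separate and the UWB1.289 groups overlapped. JAK1 rose 1.41-fold in OVCAR3 (log2 fold change 0.50, SE 0.0757, adjusted p = 5.72e-05). In UWB1.289 the log2 fold change was 0.18 (95% interval -0.01 to 0.37, adjusted p = 0.237). RAVER2, which overlaps JAK1 exons on the other strand, had 1018 counts in all against 12321 for JAK1, and did not pass in either line (adjusted p = 0.967 in UWB1.289 and 0.837 in OVCAR3, edgeR).

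The receptor chains showed larger differences between the lines than between treatments. IFNAR1 (ENSG00000142166, chr21:33324387-33359864, plus strand) had 220.1 ± 14.2 normalized counts in UWB1.289 with DMSO and 248 ± 26.0 with olaparib (SD, n = 4). In OVCAR3 it had 589 ± 34.5 and 662 ± 69.5. The treated and control libraries overlapped in both lines. The log2 fold change was 0.17 in each line, with 95% intervals of -0.05 to 0.40 in UWB1.289 and -0.01 to 0.36 in OVCAR3 (adjusted p = 0.363 and 0.162). The OVCAR3 change would pass without olaparib replicate 3 (adjusted p = 0.0641).

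IFNAR2 (ENSG00000159110, chr21:33205282-33265675, plus strand), the chain that binds interferon most tightly, had 81.1, 58.4, 83.8 and 85.6 normalized counts in UWB1.289 with DMSO and 93.1, 105, 133 and 86.4 with olaparib. In OVCAR3 it had 251, 205, 271 and 249 with DMSO and 266, 277, 293 and 334 with olaparib. The UWB1.289 groups were separate by less than 1 normalized count, and the OVCAR3 groups overlapped. In UWB1.289 the log2 fold change was 0.43 (SE 0.170, adjusted p = 0.122), and it passed with the replicate number as a block (0.42, adjusted p = 0.0851), with all 16 libraries in the fit (adjusted p = 0.0804) and without olaparib replicate 1 (adjusted p = 0.0947). In OVCAR3 it passed narrowly (0.26, SE 0.110, adjusted p = 0.0898), and the call was lost without any of DMSO replicates 1, 2 and 4 or olaparib replicates 2, 3 and 4, with adjusted p up to 0.249. IFNAR2 shares exons on its strand with the readthrough gene IFNAR2-IL10RB, which has no row of that name in the count table. The libraries hold 3' ends, and the part of the longer transcript in the IFNAR2 reads was not tested.

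Whether the lines differed in their response was tested over all 16 libraries as an interaction contrast, the log2 fold change in UWB1.289 minus that in OVCAR3. It passed for 5 of the 9 genes. STAT2, IRF1 and IRF7 responded more positively in UWB1.289, where 5.09% of 14243 genes tested did so, and JAK1 and TYK2 less, where 5.83% did so. The difference was 0.87 on the log2 scale for IRF7 (SE 0.190, adjusted p = 0.00322), 0.71 for STAT2 (SE 0.176, adjusted p = 0.0101) and 0.70 for IRF1 (SE 0.169, adjusted p = 0.00760). It was -0.79 for TYK2 (SE 0.155, adjusted p = 0.00127). These 4 differences passed in all 20 alternatives that refitted the data, and none of them reached 2-fold. For JAK1 the difference was -0.32 (SE 0.115, adjusted p = 0.0967), and it was lost on leaving out any of 12 of the 16 libraries, the exceptions being UWB1.289 DMSO replicate 1, UWB1.289 olaparib replicate 3, OVCAR3 DMSO replicate 2 and OVCAR3 olaparib replicate 3. The counts assigned to IRF1-AS1 also differed (1.60, SE 0.320, adjusted p = 0.00141).

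The other 4 genes did not pass this test. The 95% interval of the difference was -0.16 to 0.996 for IRF9 (adjusted p = 0.422), -0.24 to 0.57 for IFNAR2 (adjusted p = 0.709), -0.33 to 0.16 for STAT3 (adjusted p = 0.764) and -0.27 to 0.28 for IFNAR1. The interval of IRF9 was the widest of the 9, and its upper end lies close to a 2-fold difference.

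The control libraries show how the pathway genes stood in the lines without olaparib. With DMSO, all 9 genes differed between the lines, and none of the 9 overlapped between the control groups, where 79.9% of 13366 genes tested differed and 69.4% did not overlap. Both receptor chains, JAK1, STAT2 and IRF1 were lower in UWB1.289, and TYK2, STAT3, IRF7 and IRF9 were higher. The calls rest on a background in which most genes differ, and 5 of the 9 members were differentially expressed where 38.4% of genes were.

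**Figure D3:**
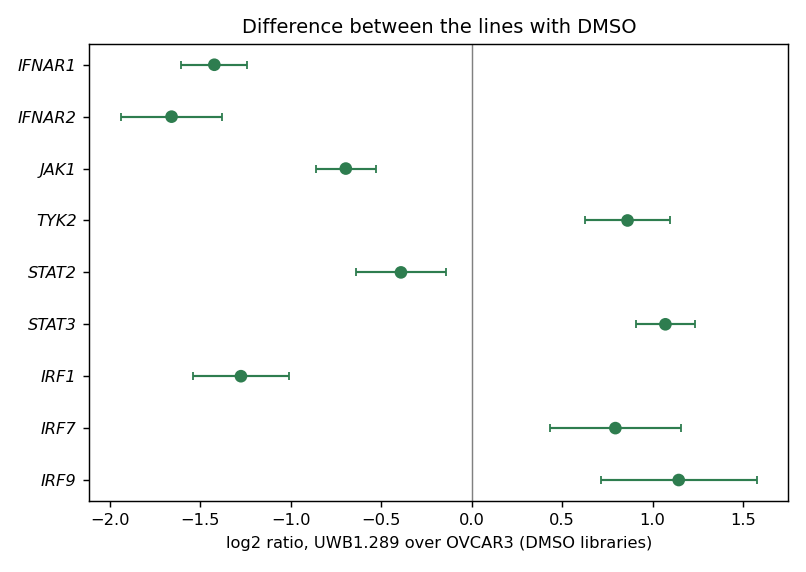
Log2 difference of each gene between the lines with DMSO, UWB1.289 over OVCAR3 (horizontal axis), with 95% intervals from edgeR. The receptor chains, IRF1, JAK1 and STAT2 lie left of 0, from -1.66 to -0.39, and IRF7, TYK2, STAT3 and IRF9 lie right of it, from 0.79 to 1.14.

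IFNAR2 was 3.16-fold lower in UWB1.289 than in OVCAR3 with DMSO (adjusted p = 3.67e-12) and IFNAR1 was 2.68-fold lower (adjusted p = 6.84e-15). IRF1 was 2.42-fold lower (adjusted p = 4.25e-10), JAK1 1.62-fold lower (adjusted p = 6.52e-09) and STAT2 1.31-fold lower (adjusted p = 0.00495). In the other direction, IRF9 was 2.21-fold higher (adjusted p = 1.55e-05) and STAT3 2.10-fold higher (adjusted p = 3.83e-13). TYK2 was 1.82-fold higher (adjusted p = 9.09e-08) and IRF7 1.73-fold higher (adjusted p = 1.87e-04). Both receptor chains were thus lower in the line in which IRF7 and IRF9 were higher.

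Over all 4 groups the order of levels took a few forms. IFNAR1, IFNAR2 and JAK1 ran from OVCAR3 with olaparib through OVCAR3 with DMSO and UWB1.289 with olaparib to UWB1.289 with DMSO, with ratios of the highest to the lowest group mean of 3.01, 3.79 and 2.28. STAT3, IRF7 and IRF9 were highest in UWB1.289 with olaparib, then UWB1.289 with DMSO, OVCAR3 with olaparib and OVCAR3 with DMSO, with ratios of 2.57, 5.47 and 4.33. For IRF7 and IRF9 the middle 2 groups overlapped, and for STAT3 the 2 UWB1.289 groups did. STAT2 had the flattest profile, with a ratio of 1.46, and TYK2 had 1.83.

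The wider pathway was described with a list of 63 other genes in 8 roles, also chosen with earlier results of these data known. In UWB1.289, 23 of the 42 measured genes passed and all 23 rose, where 7.77% of all genes tested rose. In OVCAR3, 19 of 40 passed and all 19 rose, where 15.5% of all genes tested rose. These shares of all genes also stand behind the counts by role that follow. Of 18 interferon-induced targets, 16 were measured in UWB1.289 and all 16 rose, among them the antiviral genes IFIT1 (log2 fold change 3.90), RSAD2 (3.80) and MX1 (3.71), and the smallest rise was that of BST2 (0.46). RSAD2 had 4 to 15 raw counts a library in UWB1.289 with DMSO and 125 to 175 with olaparib. It passed the filter on low counts through its treated libraries. In OVCAR3, 12 targets were measured and 9 rose, with the largest changes in IFI27 (1.27), IFIT1 (1.17) and OAS3 (1.16). The IFIT1 groups overlapped there, with 7 to 16 raw counts a library with DMSO and 14 to 36 with olaparib. IFIT1 needed its treated libraries to pass the filter in OVCAR3. The interaction test passed for 19 of 45 measured genes of the list, 16 with a higher and 3 with a lower effect in UWB1.289, where 5.09% and 5.83% of all genes tested did so. The effect on targets was higher in UWB1.289 for 14 of 16 and lower for BST2 (difference -0.55, adjusted p = 0.0596, edgeR). RSAD2, XAF1 and CMPK2, among those with a higher effect, were below the filter in OVCAR3, with at most 16 raw counts a library there. They entered this test through their UWB1.289 counts. OAS2, which did not pass it, was below the filter in OVCAR3 as well. The changes of IRF7, IRF1 and IRF9 in UWB1.289 lay below those of 15 of the 16 targets in that line.

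**Figure D4:**
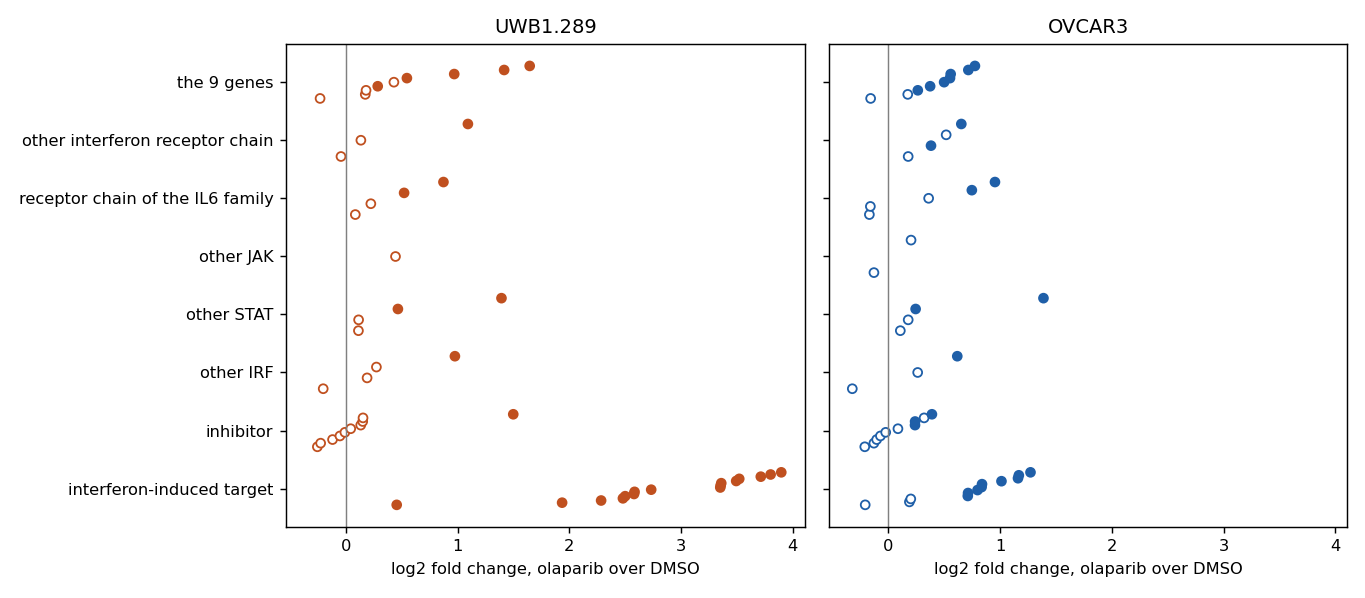
Log2 fold change, olaparib over DMSO, of the 9 genes and of the other pathway genes by role, in UWB1.289 and OVCAR3 on the same axis. Each point is a gene, filled where the edgeR adjusted p was below 0.1, and interferon ligands are left out because none passed the filter on low counts. The targets reach 3.90 in UWB1.289 and 1.27 in OVCAR3, and the other interferon receptor chains reach 1.09 and 0.65.

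The ligands were near the detection limit. None of the 11 interferon genes listed passed the filter on low counts, 6 had no count in any library, and the 11 genes had 53 counts over the 16 libraries, at most 9 in a library. In UWB1.289 the type III interferon IFNL1 had 3 raw counts over the 4 DMSO libraries and 14 over the 4 olaparib libraries, 9 of them in a single library, and IFNL2 had 0 and 7. In OVCAR3 IFNL1 had 4 and 6 and IFNL2 had 0 and 1. The type I gene IFNB1 had 1 count in all, in OVCAR3 with olaparib. These differences were not tested, and the RNA was taken after 96 h of treatment.

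Among the other receptor chains, IFNGR1, the ligand-binding chain for interferon gamma, rose in both lines. On the log2 scale it rose by 1.09 in UWB1.289 (SE 0.254, adjusted p = 0.00700) and by 0.65 in OVCAR3 (SE 0.208, adjusted p = 0.0264). IL6ST, the signal chain shared by the IL6 family and placed upstream of STAT3, rose by 0.52 in UWB1.289 (SE 0.105, adjusted p = 0.00212) and by 0.95 in OVCAR3 (SE 0.121, adjusted p = 7.85e-06). In UWB1.289, 1 of 3 other interferon receptor chains and 2 of 4 chains of the IL6 family rose. In OVCAR3, 2 of 4 and 2 of 5 rose. The other JAK genes did not pass in either line, with 1 measured in UWB1.289 and 2 in OVCAR3.

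Of the other STAT genes, 2 of 4 rose in each line. STAT5A, a STAT of cytokine and growth hormone receptors, was among them in each, with a log2 fold change of 0.47 in UWB1.289 (adjusted p = 0.0600) and 1.39 in OVCAR3 (adjusted p = 0.0153). Its OVCAR3 raw counts were low, 3 to 11 with DMSO and 14 to 19 with olaparib, so that it needed its treated libraries to pass the filter there. The difference between the lines did not pass for STAT5A (-0.92, adjusted p = 0.151, edgeR). Of the other IRF genes, IRF5 rose in UWB1.289 (0.98, adjusted p = 0.0256), was below the filter in OVCAR3, and did not pass the test of the difference (0.17, adjusted p = 0.930). IRF3, the factor activated by cytosolic nucleic acid sensors, rose in OVCAR3 (0.62, adjusted p = 0.00698). The effect on IRF3 was lower in UWB1.289 than in OVCAR3 (difference -0.82, adjusted p = 0.00420). IRF3 thus shared the direction of the TYK2 difference.

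Among inhibitors of the pathway, USP18, which binds IFNAR2 and dampens signalling, was the 1 of 10 measured inhibitors that rose in UWB1.289 (2.83-fold, from a mean of 85.7 to 242 normalized counts, adjusted p = 3.15e-06), and it did not pass in OVCAR3 (log2 fold change -0.02, adjusted p = 0.962). The difference between the lines passed for USP18 (1.52, adjusted p = 0.00322). In OVCAR3 the phosphatases PTPN11, PTPN1 and PTPN2 rose by 0.39, 0.24 and 0.24 on the log2 scale. The difference between the lines passed for PTPN11 (-0.51, adjusted p = 0.00830) and did not for PTPN1 (-0.09, adjusted p = 0.733) or PTPN2 (-0.10, adjusted p = 0.746). With DMSO, 25 of 44 measured genes of the list were higher in UWB1.289 and 12 were lower, where 79.9% of all genes tested differed in one or the other direction. STAT5A (log2 difference 3.66, adjusted p = 1.49e-12) and IRF3 (1.89, adjusted p = 7.79e-14) were among the higher. STAT5A had 77 to 81 raw counts a library in UWB1.289 with DMSO and 3 to 11 in OVCAR3. It entered this test through its UWB1.289 counts, as did IRF5, IFNLR1, IFIT1, OAS2, XAF1 and CMPK2, also among the higher. LIFR and IL10RB, among the lower, entered through their OVCAR3 counts. SOCS3, the feedback inhibitor induced by STAT3, was lower in UWB1.289 with DMSO (log2 difference -2.86, adjusted p = 3.17e-18), and STAT3 itself was higher there.

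The genes whose levels followed each member most closely were found by Pearson correlation over the 16 libraries after the mean of each line had been subtracted, among 14242 genes. These correlations share the libraries and the treatment and are given as a description. IRF1 was followed most closely by GBP1 (r = 0.978), OAS3 (0.976) and ISG15 (0.964), and IRF7 by PLSCR1 (0.979), HLA-C (0.972) and ISG15 (0.970), all known as interferon-responsive genes. IRF9 was followed by OASL (0.896), HELZ2 (0.894) and COL27A1 (0.889). Among the 9 genes, the closest member to both IRF1 and IRF9 was IRF7, with r = 0.954 and 0.850. JAK1 had other neighbours, FOXO1 (0.960), PALM2AKAP2 (0.960) and MAP4K4 (0.954), and so had TYK2, with OGFRL1 (0.943), CDT1 (0.918) and PXDN (0.917). STAT2 was followed by MOCS1 (0.932), HOXA-AS2 (0.887) and PRRG4 (0.886), and STAT3 by NFATC2IP (0.915), RIOK1 (0.911) and GTF3C5 (0.911). The closest member to STAT2 was IRF1, with r = 0.664.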

How the data were processed

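The authors sequenced QuantSeq 3' mRNA libraries of 16 samples, used BBDuk for trimming, STAR 2.7.9a for alignment to hg38 and featureCounts 2.0.0 for counting, and they deposited raw counts per gene that had not been normalized. Strand and multi-mapping settings are not given in the sources used here. Groups were taken from the sample labels. The authors describe treatment in 4 replicates, and whether these were independent experiments could not be checked. No 2 libraries of a group were identical.

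In R 4.3.3, edgeR 4.0.16 was used with TMM scaling, its default filter on low counts and the quasi-likelihood F test, and p-values were adjusted over all genes tested by the method of Benjamini and Hochberg, with a separate fit for each comparison of 8 libraries and all 16 for the interaction. SE was obtained from the log2 fold change and F. Intervals are 95%, and counting error at these depths is included in the test. The scripts were tested on simulated data. The genes and lists were chosen with earlier results of these data known. All 9 members are named, and of the other pathway genes up to 3 with the largest passing change in each role and comparison. BST2 and the overlapping genes were named after their values were seen. The 3 genes most like a member, by log2 CPM with a prior count of 2, are named for members that passed in both lines or differed between them. Results for some genes are not reported here. Coordinates are from GENCODE 44 on hg38.

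Values come from fits without a replicate block. Replicate numbers may mark pairs in UWB1.289, where same-numbered libraries of both treatments correlated at 0.133 to 0.224 across 9536 genes after removing group means. Differently numbered libraries there correlated at -0.210 to 0.157, which overlaps that range. Blocked values are given where they change a call. In OVCAR3 the correlations were 0.0346 to 0.165 for the same number and -0.212 to 0.135 for different numbers. Alternatives were DESeq2 1.42.0, its size factors, no filter on low counts, other thresholds, all 16 libraries in the fit, a replicate block and leaving out each library.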

Additional observations from a re-analysis of the deposited data

Results flagged for a closer look

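Of the 36 combinations of gene and group, 3 held a library that stood apart from the other 3 by a gap test, where chance gives about 1 in 20, or 1.8. IFNAR2 was at 58.4 normalized counts in UWB1.289 DMSO replicate 2, and the others were at 81.1 to 85.6. JAK1 was at 901 in OVCAR3 DMSO replicate 2, against 784 to 804. IRF1 was at 253 in UWB1.289 olaparib replicate 1, against 216 to 222.

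The olaparib effect differed between the lines by the interaction test for 5 genes. The log2 difference, UWB1.289 minus OVCAR3, was 0.87 for IRF7, 0.71 for STAT2, 0.70 for IRF1, -0.32 for JAK1 and -0.79 for TYK2. TYK2 had control and treated libraries that did not overlap in either line, in opposite directions, and its UWB1.289 change alone did not pass.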

How the results depend on the processing

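Of 531 alternative values of single genes, 481 kept their direction and their side of the threshold, 33 lost the call, 4 gained it and 13 changed sign. All 13 sign changes were those of the difference of the olaparib effect on IFNAR1, which was 0.00 on the log2 scale and became -0.016 with DESeq2, -0.011 with its size factors, -0.036 without a filter on low counts, and -0.070 to 0.064 on leaving out a library. Where genes also had to change beyond 2-fold at an average count above 10, the number of genes fell from 5 to 2 in UWB1.289, from 7 to 0 in OVCAR3, from 9 to 5 between the lines with DMSO and from 5 to 0 for the difference of the effects, which follows from the fold limit. At an unadjusted p below 0.05 the counts were 7 in UWB1.289, which adds IFNAR2 and, downward, TYK2, then 7 in OVCAR3, 9 between the lines and 5 for the difference. Many other genes lay below that limit too, and their exact share was not counted. By rank of p, at least 2532 of 12748 genes did in UWB1.289 (the rank of TYK2) and 4010 of 13031 in OVCAR3 (IRF9). At least 10197 of 13366 did between the lines (JAK2) and 2920 of 14243 for the difference (PTPN6). STAT2 itself ranked 8859 between the lines, and JAK1 ranked 1513 for the difference. Leaving out a library gave 4 to 5, 5 to 7, 9 to 9 and 4 to 5 genes. The replicate block gave 6, 7, 9 and 5, adding IFNAR2 in UWB1.289 and changing no other call. In OVCAR3, IFNAR2 and IRF9 were also lost with DESeq2, without the filter and at an adjusted p below 0.05, which left 5 genes, and IFNAR2 was lost with all 16 libraries in the fit. That fit gained IFNAR2 in UWB1.289. The JAK1 difference was also lost without the filter (adjusted p = 0.142) and at an adjusted p below 0.05. For IRF9 in OVCAR3 the SD was 18.2% of the mean with DMSO and 25.1% with olaparib, and counting error alone gives 18.0% and 14.5%.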
